A study of Caenorhabditis elegans with 2 samples.

Results

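The genes described here are hif-1, egl-9, vhl-1, rhy-1 and aha-1, 5 of the 19973 nuclear protein-coding genes of Caenorhabditis elegans in the annotation. They were taken as the core of the hypoxia pathway because the strongest peak of the series lies upstream of hif-1. They were thus chosen by measured values, the rank and signal of peaks in their windows. Each gene was given the peaks whose summit lay in its body or in the 3000 bp upstream. The series is chromatin immunoprecipitation with sequencing (ChIP-seq) of PHA-4, a forkhead transcription factor of the FoxA class needed to form the pharynx. It holds 2 biological replicates of whole late embryos, sexes pooled and age not known. Both come from strain OP37, which carries the mutation unc-119(ed3) on chromosome III and the insertion wgIs37, the source of an eGFP-tagged PHA-4. Every animal therefore has this background, and the samples hold no untagged strain and no second condition. The labels do not say which promoter drives the insertion or how much sequence beside pha-4 it carries. If it holds the sequence under the hif-1 peak or the peaks at pha-4, reads from the native locus and from the inserted copies cannot be told apart there, and the signal given for those peaks covers both. Whole embryos mix all cell types, so a peak does not say in which cells the factor was bound.

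HIF-1 is the transcription factor that turns genes on when oxygen is low, and it works as a dimer with AHA-1, its partner of the same bHLH-PAS family. With oxygen present, the prolyl hydroxylase EGL-9 marks HIF-1, the ubiquitin ligase subunit VHL-1 recognises the mark, and the protein is destroyed. RHY-1, a membrane protein, also keeps HIF-1 activity low, and both egl-9 and rhy-1 are themselves induced by HIF-1, which closes a feedback loop.

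The authors' lists in genome build ce11 held 5607 peaks in replicate 1, 1729 in replicate 2, 7768 called on both replicates pooled, and 9 in the final list. Each peak carries the authors' signal, a strength against control whose scaling between libraries is not stated, so values from different lists are set side by side and not compared. It also carries a q-value, the false discovery rate of the authors' caller. In replicate 2 the smallest q was 0.351, against 0.00336 in replicate 1 and 0.00541 in the pooled list. No read counts come with the peaks, and library depth is unknown.

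The sequences under 3 peaks are shown first because they hold the features compared below: the hif-1 peak, the peak upstream of pha-4 that is second in the final list, and the replicate 1 peak upstream of egl-9. All are on the plus strand of chromosome V in build WBcel235, at V:20778340-20778639, V:20749176-20749376 and V:10466643-10466843, with the summit at or near the centre. Capitals mark TCTGCGTCTC, the longest run of letters common to the hif-1 peak, the pha-4 upstream peak and the weaker pooled egl-9 peak, which covers nearly the same bases as the replicate 1 peak shown.
hif-1 upstream peak: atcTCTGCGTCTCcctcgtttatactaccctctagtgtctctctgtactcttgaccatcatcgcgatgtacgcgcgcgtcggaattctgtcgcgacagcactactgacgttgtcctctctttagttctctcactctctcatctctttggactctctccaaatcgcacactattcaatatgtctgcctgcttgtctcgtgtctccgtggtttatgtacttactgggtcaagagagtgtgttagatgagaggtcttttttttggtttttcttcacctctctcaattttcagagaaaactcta
pha-4 upstream peak: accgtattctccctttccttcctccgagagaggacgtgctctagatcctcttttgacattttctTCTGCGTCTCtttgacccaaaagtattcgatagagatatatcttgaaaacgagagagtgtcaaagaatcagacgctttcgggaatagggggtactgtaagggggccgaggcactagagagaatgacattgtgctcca
egl-9 upstream peak: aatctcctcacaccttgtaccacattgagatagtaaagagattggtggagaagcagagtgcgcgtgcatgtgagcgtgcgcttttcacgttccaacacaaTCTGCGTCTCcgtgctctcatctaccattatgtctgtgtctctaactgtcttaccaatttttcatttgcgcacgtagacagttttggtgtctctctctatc

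The transcription factor gene hif-1 (WBGene00001851, V:20780407-20785260, plus strand) had 1 peak in its window, and that peak was first in 3 of the 4 lists. In replicate 1 it spanned V:20778326-20778669 with a signal of 58.8 and rank 1. Replicate 2 had no summit in the window. The pooled list and the final list both gave V:20778315-20778664 with a signal of 59.3 and rank 1. The peak is thus found wherever replicate 1 entered the calling and is missing from replicate 2 alone. Within replicate 1 its signal was 1.24 times that of the second peak (47.4), and within the pooled list 1.33 times (44.7). The pooled and replicate 1 summits were at −1917 and −1909 bp from the hif-1 start, in sequence between genes. These values chose the gene and carry no test.

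The hif-1 peak lies between divergent genes. The neighbour on the other side, F38A6.4, is on the minus strand, and its start lies 3121 bp from the pooled summit, just beyond the 3000 bp reach used here. The nearest start of any protein-coding transcript is that of hif-1. Summit positions in the replicate 1 and pooled lists are the middle of fixed-width peaks (344 bp in replicate 1, 350 bp in the pooled list), so they carry no finer detail. The nearest replicate 2 summit was 21311 bp away, in pha-4, with a signal of 5.45 and rank 6. Of the 10 strongest peaks of replicate 1, 1 overlapped a replicate 2 peak. Over the whole replicate 1 list 84 of 5607 peaks did, so a replicate 1 peak without one in replicate 2 was the usual case.

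The hif-1 peak stood alone, whereas the strong peaks at pha-4 stood in a group. Replicate 1 had 18 summits from 8 kb before pha-4 to 1 kb after it, and then none over the 17622 bp between the last of them (rank 37, signal 16.1) and the hif-1 summit. On the far side the next summit came after 14157 bp, with a signal of 3.21 and rank 2471. Over all replicate 1 peaks the median distance to the nearest other summit was 4280 bp, and 17.6% of peaks were at least as far from their neighbour as the hif-1 peak. Among the strongest 100 the median was 2768 bp, and 19 of the 100 were as far. In the pooled list the nearest other summit was 10942 bp away, against a median of 3323 bp.

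Counted over hif-1 and 20 kb on either side (V:20760407-20805260), replicate 1 had 3 summits, replicate 2 had 0 and the pooled list had 3. Bins of this width along chromosome V had a median of 1, 1 and 2, and a highest count of 18, 6 and 22. In replicate 1, 29% of bins held at least as many, and in the pooled list 49.2%. Among the strongest 1000 peaks of each list the window held 2 summits in replicate 1 and 2 in the pooled list, where the median bin had 0 and 5.38% and 5.59% of bins held at least as many. Those 2 were the hif-1 peak and the outermost peak of the group at pha-4. Around the other 4 genes the count over all peaks ran from 2 to 5 in replicate 1 and from 1 to 3 in replicate 2. In the pooled list it ran from 4 to 7. The median bin of their chromosomes had 2 in replicate 1, 0 or 1 in replicate 2 and 3 in the pooled list. Among the strongest 1000 peaks the count around these genes ran from 0 to 1 in replicate 1 and from 0 to 3 in the pooled list.

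**Figure D1:**
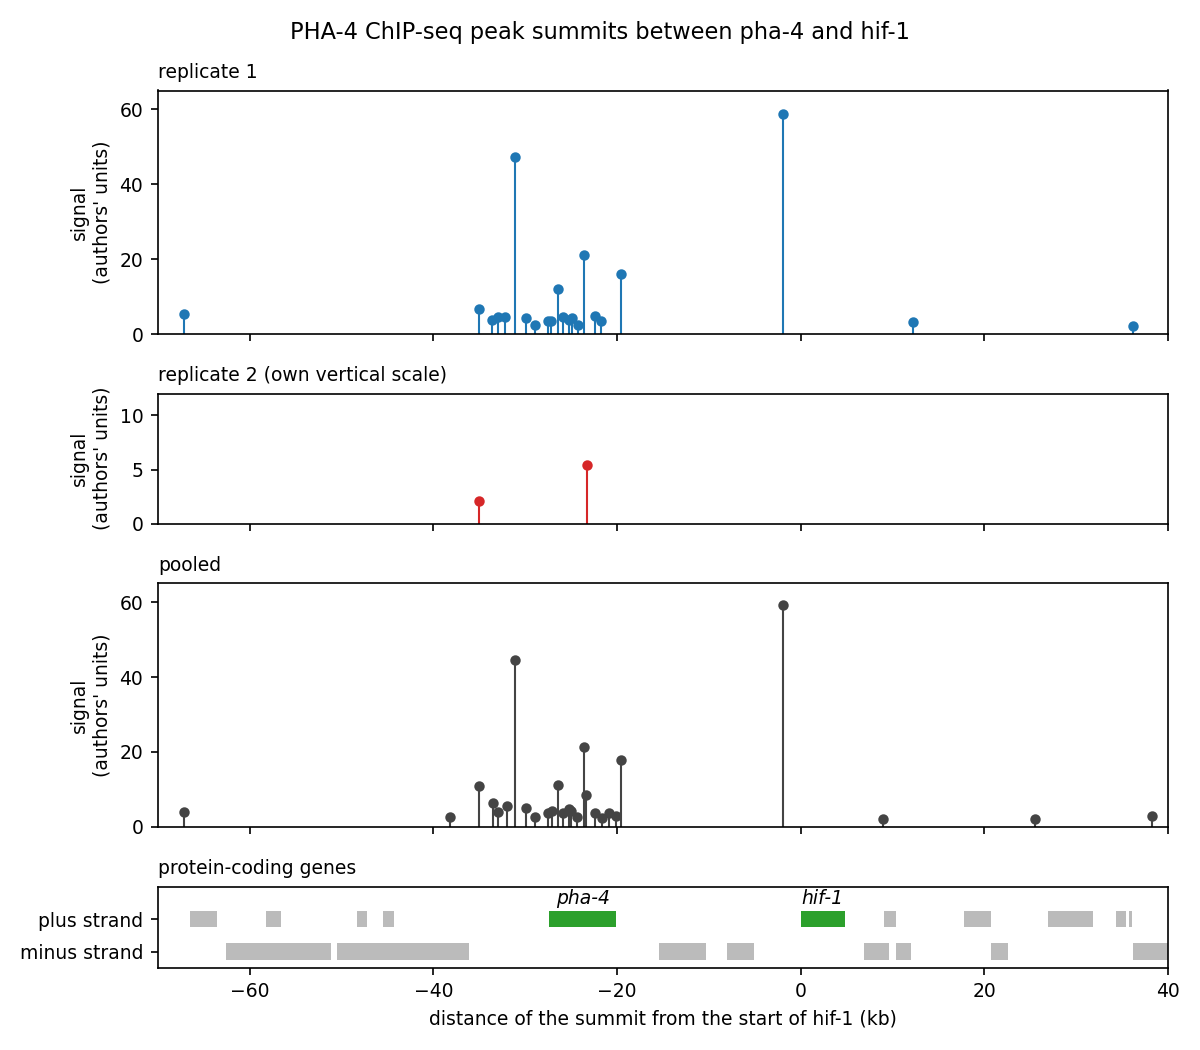
Signal of each peak summit (authors' units, vertical) against its distance from the hif-1 start (kb, horizontal) in replicate 1, replicate 2 and the pooled list, with protein-coding genes by strand below and hif-1 and pha-4 in green. The hif-1 peak, at 58.8 in replicate 1, stands by itself right of the group of summits at pha-4, and replicate 2, on its own scale, has none there.

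The hydroxylase gene egl-9 (WBGene00001178, V:10468517-10476915, plus strand) was the 1 gene of the 5 with a summit in both replicates, but at different places. In replicate 1 the peak V:10466571-10466914 had a signal of 5.10, rank 1076 and q of 0.00511, at −1774 bp from the start. In replicate 2 the peak V:10470143-10470732 had a signal of 2.98, rank 240 and q of 0.399. Its summit was 1921 bp inside the gene, in a coding exon and 14 bp from the start of a shorter egl-9 transcript at V:10470424. The summits were 3695 bp apart and the peaks did not overlap.

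In the pooled list the upstream part of egl-9 gave 2 peaks 274 bp apart. V:10466848-10467197 had a signal of 4.08, rank 1846 and q of 0.109, and V:10466574-10466923, over the replicate 1 summit, had 2.13, rank 7134 and q of 0.905. Neither had q of 0.05 or less, and the internal site of replicate 2 was not in the pooled list. The upstream summits lay in the annotated non-coding RNA genes F22E12.9, F22E12.10 and F22E12.12, and the nearest protein-coding start was that of egl-9.

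The dimer partner gene aha-1 (WBGene00000095, I:10193925-10196997, minus strand) had a peak close to its start. Replicate 1 gave I:10197114-10197457 with a signal of 5.23, rank 1018 and q of 0.00541. Replicate 2 had no summit in the window, and its nearest was 22217 bp away. The pooled list gave I:10197111-10197460 with a signal of 5.46, rank 1000 and q of 0.0255. The summit was the same base in both lists, 289 bp upstream of aha-1. It was closer to the start of the gene on the other strand, C25A1.15, at 35 bp, so a position between divergent promoters does not assign the peak to either gene.

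For vhl-1, the ubiquitin ligase subunit gene (WBGene00006922, X:11307356-11308518, plus strand), the only peak was weak. Replicate 1 gave X:11306589-11306932 with a signal of 2.27, rank 4553 and q of 0.0227, at −595 bp from the start and nearest to vhl-1. Replicate 2 and the pooled list had no summit in the window. The nearest pooled summit, 1940 bp past the end of the gene, had a signal of 2.72 and rank 4374.

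The membrane protein gene rhy-1 (WBGene00012324, II:9161379-9163448, plus strand) had no summit in any list. The nearest summits outside its window were 6158 bp past its end in replicate 1, inside T23G7.2, with a signal of 4.57 and rank 1309, and 11777 bp past its end in replicate 2, inside sec-5, with a signal of 3.50 and rank 80. The nearest upstream one in replicate 1 was 44403 bp beyond the window. For the other genes, the closest summits just outside were 1242 bp past the end of egl-9 (replicate 1, signal 4.996, rank 1119), 1304 bp before its window inside chw-1 (replicate 2, signal 2.04, rank 1617) and 2837 bp past the end of aha-1 (replicate 1, signal 3.98, rank 1653).

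**Figure D2:**
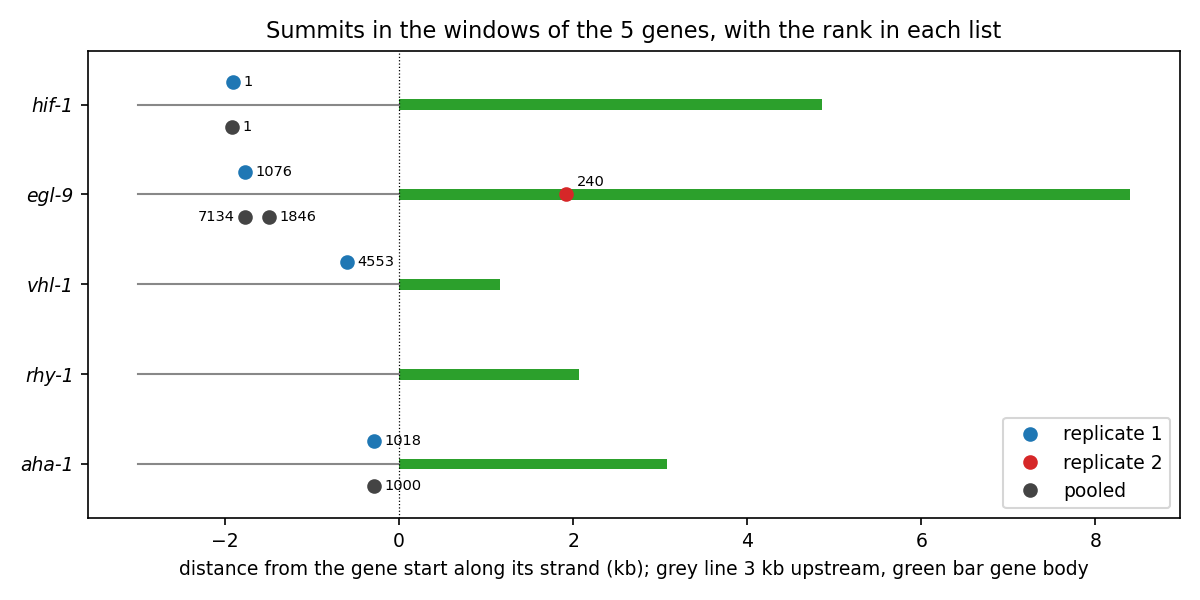
Position of each summit along the gene (kb from the gene start, horizontal) for the 5 genes, coloured by list and labelled with its rank, with the 3 kb upstream part as a grey line and the gene body as a green bar. Replicate 1 and pooled summits lie upstream of hif-1, egl-9 and aha-1, the replicate 2 summit lies inside egl-9, and rhy-1 has none.

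Counted by list, 4 of the 5 genes had a summit in replicate 1, 1 in replicate 2, 3 in the pooled list and 1 in the final list. Over all 19973 protein-coding genes the same window held a summit in 27.3%, 10.2%, 34.9% and 0.0551%. The genes were chosen with these peaks known, so nothing is read from the difference. Their windows ran from 4163 to 11399 bp, against a median of 5027 bp over all genes, and longer windows catch more summits. Among the strongest 1000 peaks, replicate 1 had hif-1 alone (background 6.01%), the pooled list hif-1 and aha-1 (background 5.89%), and replicate 2 egl-9 (background 5.91%). The aha-1 peak was at the cutoff, with rank 1000 in the pooled list and 1018 in replicate 1. With q of 0.05 or less, the counts were 4 of 5 in replicate 1 (background 25.8%) and 2 in the pooled list (background 7.76%). No replicate 2 peak had such a q, so the count there was 0 for every gene.

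**Figure D3:**
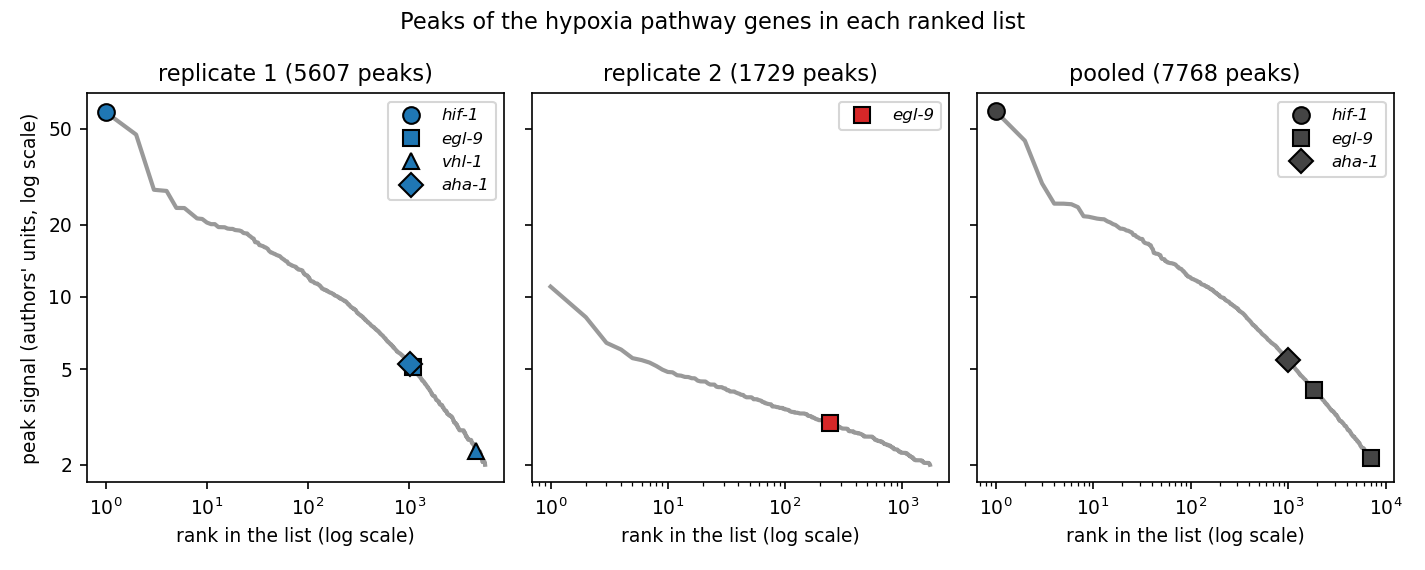
Signal (authors' units, log scale, vertical) against rank (log scale, horizontal) for every peak of replicate 1, replicate 2 and the pooled list as a grey curve, with the peaks of hif-1, egl-9, vhl-1 and aha-1 as symbols. The hif-1 peak tops the replicate 1 and pooled curves, and the others lie at rank 1000 or lower there.

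The PHA-4 consensus was found at some of these summits and not at the strongest. It is T, A or G, T, T, G or T, A or G, C or T, and was sought on either strand within 100 bp of the summit. No match lay within 100 bp, or within 150 bp, of the hif-1 summit, and the nearest was 567 bp from the pooled summit on the side of the gene. The upstream egl-9 summits of replicate 1 and the pooled list also had none, with the nearest at −515 bp from the replicate 1 summit. At aha-1 matches were centred 11 and 83 bp from the summit. At vhl-1 there was 1, centred at −29 bp, and at the internal egl-9 site of replicate 2 there was 1, centred at −54 bp. These last 2 are shown because both carry the same letters, in capitals, on the plus strand of X:11306661-11306861 and V:10470338-10470538 in WBcel235.
vhl-1 upstream peak: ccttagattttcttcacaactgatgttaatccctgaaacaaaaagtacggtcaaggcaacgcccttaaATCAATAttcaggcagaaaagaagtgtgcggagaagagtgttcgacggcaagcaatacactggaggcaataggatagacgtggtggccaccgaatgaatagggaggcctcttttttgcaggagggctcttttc
egl-9 internal peak: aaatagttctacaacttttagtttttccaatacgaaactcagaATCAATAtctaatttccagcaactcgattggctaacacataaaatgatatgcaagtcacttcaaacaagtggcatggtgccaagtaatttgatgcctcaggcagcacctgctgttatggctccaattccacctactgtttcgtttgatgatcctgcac

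In counts, 2 of the 4 replicate 1 summits, the 1 of replicate 2 and 1 of the 4 pooled summits had the consensus. Over all summits of these lists the shares were 57.5%, 46.3% and 54.4%, and over all windows of the same length in the nuclear genome 45.1%. A window without a match is therefore common, also among the strongest 100 peaks of replicate 1, of which 68% had one. The forkhead core TGTTTNC, on either strand, of which 2 of the 4 forms also match the consensus, lay within 100 bp of none of the summits of the 5 genes, against 24.4% of all replicate 1 summits and 17.8% of genome windows. Of the summits of the further pathway genes described below, 7 of 17 in replicate 1 and 8 of 21 in the pooled list had the consensus.

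The run TCTGCGTCTC was taken, after the sequences were seen, as the longest run common to 3 chosen peaks. Its presence in those peaks is thus by definition, and it is a description. In the hif-1 peak it is centred at −142 bp from the pooled summit, in the pha-4 upstream peak at −31 bp, and at egl-9 at 5 bp from the replicate 1 summit and −1 bp from the weaker pooled summit. The peaks at vhl-1 and aha-1, the stronger pooled egl-9 peak and the internal egl-9 site did not hold it on either strand. Of the further pathway genes, swan-1 had it in replicate 1, and swan-1 and ethe-1 in the pooled list. Taken in pairs, 44.5% of the other replicate 1 peaks share some run of at least 10 letters with the hif-1 peak. How often 3 peaks share one run was not computed. Over the lists, TCTGCGTCTC lay in 18% of the strongest 100 peaks of replicate 1, in 13.4% of the next peaks down to rank 1000 and in 5.67% of those below. In replicate 2, whose peaks are 400 or 590 bp wide, the shares were 2%, 2.54% and 1.38%. Windows of 350 bp in the nuclear genome held it in 1.07%. Longer stretches hold a run more often, so the replicate 2 shares are not compared with that of the windows. The hif-1 and pha-4 upstream peaks are themselves 2 of the strongest 100 and 2 of the 9 final peaks, and no other final peak held the run.

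**Figure D4:**
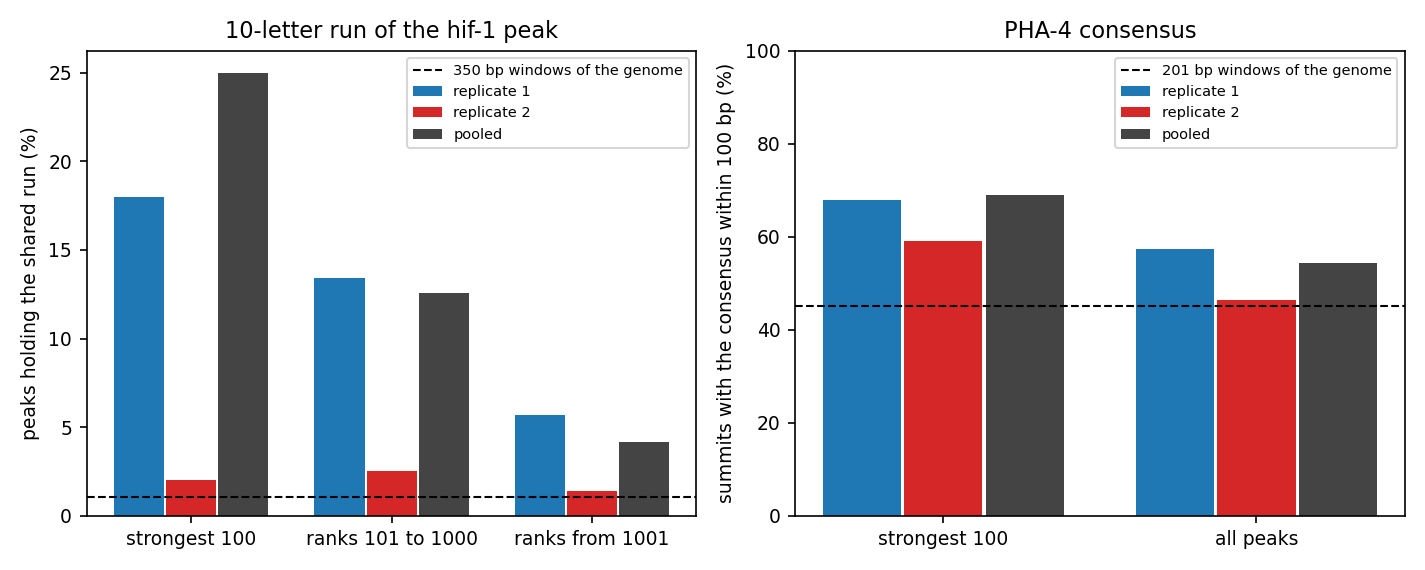
Left, share of peaks (%) holding the 10-letter run of the hif-1 peak by rank group in each list, with the share of 350 bp genome windows (1.07%) as a dashed line. Right, share of summits (%) with the PHA-4 consensus within 100 bp among the strongest 100 and all peaks, with the share of genome windows of the same length (45.1%) as a dashed line. Bars start at 0, and for the run replicate 2 lies between 1.38% and 2.54% in the 3 rank groups. Replicate 2 peaks are 400 or 590 bp wide, so the dashed line on the left is not of their length.

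Base composition and uniqueness were taken for the same peaks. The hif-1 summit with 100 bp on either side had 47.3% G and C in replicate 1, where the median over all peaks was 39.8%. Those at egl-9 upstream, vhl-1 and aha-1 had 45.8%, 45.8% and 42.8%, all above that median. In the pooled list, where the median was 39.3%, the stronger egl-9 peak was below it at 32.3%. All runs of 25 bases in the peaks of the 5 genes occur once in the reference genome, which does not hold the insertion, so none of these peaks lies in sequence repeated in the reference at that length.

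Genes with the same pattern as hif-1, present in replicate 1, the pooled and the final list and absent from replicate 2, numbered 10 with hif-1. Likeness was measured as the distance in log10 of the best rank over replicate 1 and the pooled list, that is over 2 lists. The closest was unc-16, a gene of axonal transport, at 0.675 (ranks 3 and 3). The peak upstream of pha-4, at rank 2 in these 3 lists, lies more than 3000 bp before that gene. It was in no window of a protein-coding gene, so it did not enter this comparison. Next, at 1.10, came pld-1, C04G6.2 and C04G6.13, which share 1 peak (ranks 6 and 6), and then at 1.14 M02D8.2 and M02D8.3, which share another (ranks 5 and 8).

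Of the other hypoxia genes in the list, 22 of 23 matched the annotation by symbol and daf-21 was not matched. A summit lay in the window of 12 of the 22 in replicate 1, of 2 in replicate 2, of 13 in the pooled list and of 0 in the final list, beside the backgrounds of 27.3%, 10.2%, 34.9% and 0.0551% above. This list was also chosen with earlier results known, and window lengths were not matched. Nothing is therefore read from the differences, here or for its groups below. The median of the highest signal per gene, over genes with a summit, was 3.46 in replicate 1 and 3.28 in the pooled list, against 3.21 and 3.06 over all protein-coding genes with one. No member of the list reached the signal of hif-1, and the highest were 7.79 in replicate 1 and 9.19 in the pooled list.

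The partners of VHL-1 in HIF-1 degradation had a summit in 4 of 4 genes in replicate 1, 0 of 4 in replicate 2 and 3 of 4 in the pooled list, beside 27.3%, 10.2% and 34.9% of all genes. For elb-1, which encodes elongin B, replicate 1 gave III:11719602-11719945 with a signal of 7.28 and rank 474, and the pooled list gave 7.60 and rank 447. Its summit lay 324 bp upstream of elb-1 and 86 bp upstream of the divergent gene Y41C4A.11. The ring protein gene rbx-1 had a signal of 3.55 in replicate 1 and 2.71 in the pooled list. Both elc-1, for elongin C, and the scaffold gene cul-2 were weaker in replicate 1, at 2.54 and 2.27, and cul-2 had none in the pooled list. The replicate 1 summits given to rbx-1, elc-1 and cul-2 were nearest to the starts of ztf-9, Y82E9BR.3 and dyf-2. The stronger elc-1 summit of the pooled list, at 2.56, was nearest to the start of lelo-2. All of these lay nearer to other genes than to those they were counted for.

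Upstream regulators differed, with swan-1, whose WD-repeat protein binds EGL-9, at 3.38 in replicate 1 and 3.92 in the pooled list, and cysl-1, which relays rhy-1 to EGL-9, with no summit. The second swan-1 summit of replicate 1 was 121 bp upstream of the gene.

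Over all genes, 27.3% had a summit in replicate 1, 10.2% in replicate 2 and 34.9% in the pooled list. Of the 7 genes known to be induced through HIF-1, listed with earlier results known, 4, 1 and 5 had a summit in these lists. The strongest was at cysl-2, a gene of cyanide and sulfide handling, with a signal of 6.57 and rank 599 in replicate 1 and 9.19 and rank 275 in the pooled list. That summit lay 2531 bp upstream of cysl-2 and 1044 bp upstream of the divergent gene dhs-8. At the collagen prolyl hydroxylase gene phy-2 replicate 1 had a summit 68 bp before the start with a signal of 3.78. The sulfide dioxygenase gene ethe-1 had 2.99 in replicate 1, at a summit nearer to the start of C33A12.4 than to its own. For cysteine dioxygenase, cdo-1 had only pooled peaks, of 2.03 and 2.06. Neither nhr-57, a nuclear receptor gene used as a HIF-1 reporter, nor sqrd-1, for sulfide quinone oxidoreductase, had any.

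Within F22B5.4, a gene induced by low oxygen, both replicates had a peak at the same place, which was not so for any of the 5 core genes. Replicate 1 gave II:8451484-8451827 with a signal of 2.94, rank 2953 and q of 0.00423. Replicate 2 gave II:8451465-8452054 with a signal of 2.45, rank 700 and q of 0.561. The replicate 1 peak lay wholly inside that of replicate 2 (344 bp of overlap), with summits 104 bp apart. The pooled peak had a signal of 3.25, rank 3053 and q of 0.281. The site is in an intron, 465 bp before an internal transcript start by the replicate 1 summit, and overlaps the non-coding RNA genes F22B5.11 and F22B5.12. No PHA-4 consensus lay within 100 bp. It is shown, on the plus strand of II:8451556-8451756 in WBcel235, because it is the only site of the pathway with overlapping peaks in the replicates. Over all protein-coding genes, 0.521% had overlapping peaks of both replicates with summits in the window, and among the 727 with a summit of each replicate the share was 14.3%. Of the genes described here, 3 had a summit of each replicate, egl-9, ahr-1 and F22B5.4, so 1 overlap among 3 is a description and nothing is read from it.
F22B5.4 intron peak: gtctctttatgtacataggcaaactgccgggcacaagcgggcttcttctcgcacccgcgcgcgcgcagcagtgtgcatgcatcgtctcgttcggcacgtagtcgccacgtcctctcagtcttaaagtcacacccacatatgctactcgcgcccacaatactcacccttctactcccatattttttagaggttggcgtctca

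Among the remaining genes, the bHLH-PAS gene cky-1 had 3 summits in replicate 1. The strongest, V:12737636-12737979, had a signal of 7.35 and rank 465, and 6.79 and rank 593 in the pooled list. It lay in an intron of cky-1, within the non-coding RNA gene C15C8.9. The aryl hydrocarbon receptor gene ahr-1 had 3.05 in replicate 1, in an intron, and 2.83 with rank 307 in replicate 2, at a site 5650 bp away inside set-32. The third gene of this family in the list, hlh-34, had none. The nuclear receptor gene nhr-49, with a role in the response to hypoxia that does not need HIF-1, had a summit 269 bp before its start with a signal of 7.79 and rank 396 in replicate 1 and 8.06 and rank 391 in the pooled list. Iron genes had 0 of 3 in both replicates and 1 of 3 in the pooled list. The shares over all genes were 27.3% and 10.2% in replicates 1 and 2 and 34.9% in the pooled list. The iron gene with a pooled summit was the metal transporter gene smf-3, at 2.28, while the ferritin genes ftn-1 and ftn-2 had none. The prolyl hydroxylase genes dpy-18 and phy-3 had none.

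**Figure D5:**
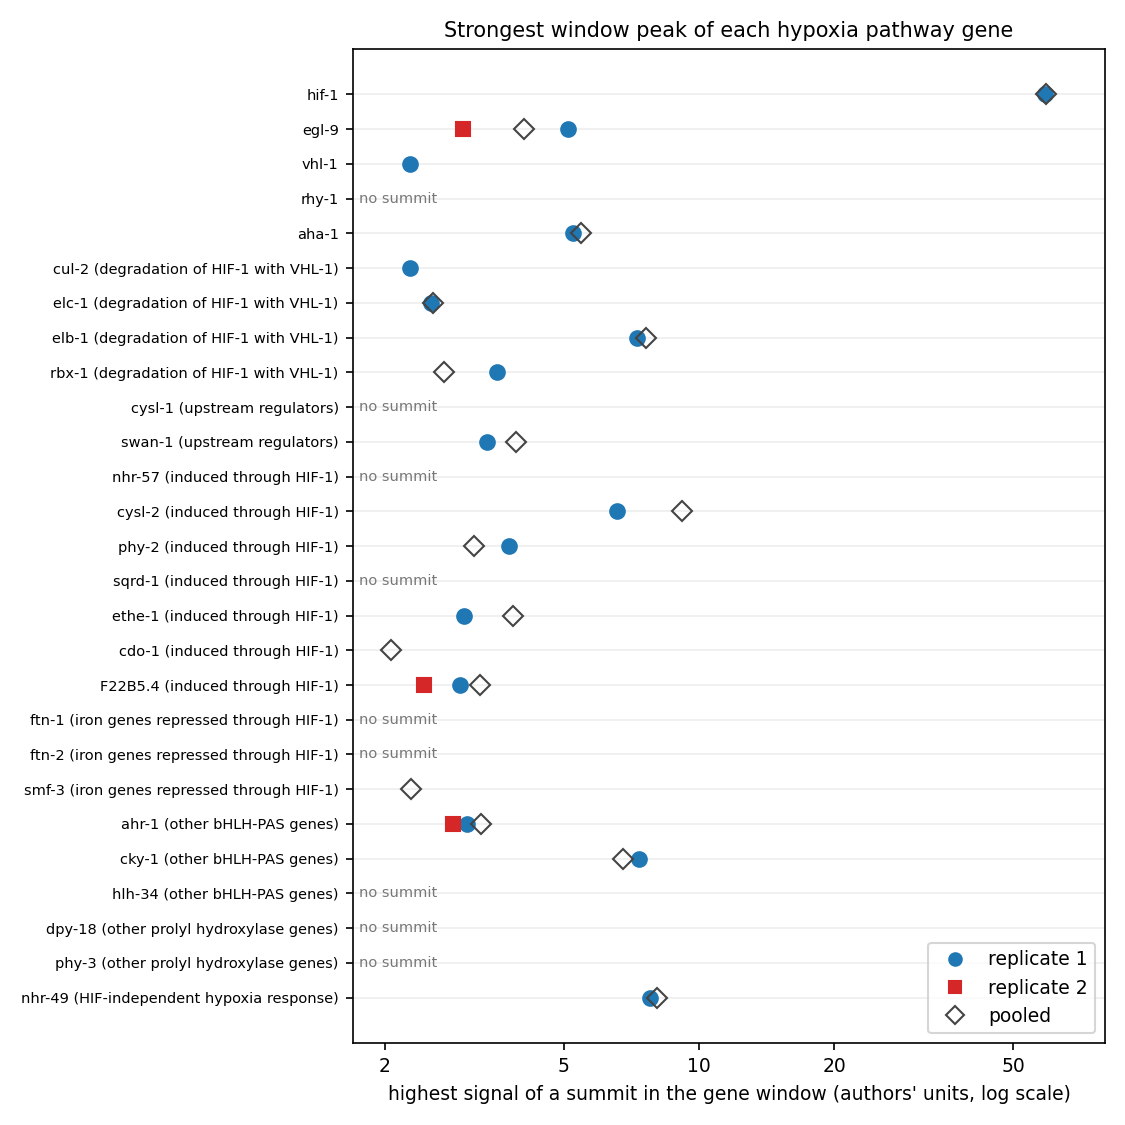
Highest signal of a summit in each gene's window (authors' units, log scale, horizontal) for the 5 core genes and the 22 further pathway genes, in replicate 1 (circles), replicate 2 (squares) and the pooled list (diamonds). The lists share an axis, but the scaling of signal between them is not stated, so symbols of different lists are not compared. The hif-1 peak, at 58.8 and 59.3, lies right of every other gene, whose values stay under 10, and genes without a summit are marked.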

How the data were processed

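PHA-4 was profiled by ChIP-seq in 2 replicates of late embryos. The authors deposited peak lists, and per the file listing with the labels the replicate lists come from 1 alignment each, the pooled list from both, and the final list, named optimal by irreproducible discovery rate, from those 3. The authors deposited a signal and a −log10 q-value per peak. The labels name no aligner, peak caller or threshold. The ce11 lists were used with WBcel235 sequence from NCBI and genes from Ensembl release 115, the matching build. The ce10 lists were not used here.

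Ranks follow signal in each list. Summits (start plus deposited offset, 1-based) were assigned to gene windows with Python 3.11.15, pandas 2.3.3 and numpy 2.4.6. The window and motif steps were tested on simulated data. No hypothesis test was run, because the members and lists were chosen with earlier results of these data known and there is 1 group. Shares over all genes, peaks or genome windows stand beside the counts. Named genes are the 5 members, genes holding or nearest to their summits, and pathway genes in the final list, the strongest 1000 or replicate 2. Also named are pha-4 and the 5 genes most like hif-1, the last of them tied with another gene. Other pathway genes were named after their values were seen. Alternatives were window reach, overlap in place of summit, peak subsets, ranking by q, motif window and each replicate alone.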

Additional observations from a re-analysis of the deposited data

How the results depend on the processing

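No paired analysis was possible because the study has 1 group. In the pooled list, 3 of the 5 genes had a summit. The count was 1 with 1000 bp upstream, where aha-1 alone remained, and 3 with 2000 or 5000 bp or by peak overlap. It was 2 with the strongest 1000 peaks, where aha-1 stood at the cutoff, and 2 with q of 0.05 or less. Leaving out 1 replicate gave from 1 (replicate 2 alone) to 4 (replicate 1 alone). Of the 22 further genes, 13 had a summit, 4 with the strongest 1000 peaks and 4 with q of 0.05 or less. The count was 9 to 14 with other windows, and from 2 to 12 with 1 replicate left out. Over all genes the pooled shares were 34.9%, 5.89% with the strongest 1000 peaks and 7.76% with q of 0.05 or less. With 1 replicate alone the shares over all genes were 27.3% in replicate 1 and 10.2% in replicate 2, so the counts over all genes changed with the list too. No share over all genes was computed for the other windows or peak overlap, so nothing is read from those changes. Ranked by q in place of signal, the hif-1 peak was at 47 in the pooled list, a mean rank over ties at the smallest q. The forkhead core was at 0 of the 4 pooled summits of the 5 genes, against 25% for the consensus. The run TCTGCGTCTC, an alternative chosen after seeing the data, was in 50% of the 4 peaks. It was defined from the hif-1 peak and the weaker egl-9 peak, which are among these 4, so this share could not have been lower. It was also sought over the whole peak and not within 100 bp of the summit. The summit count around hif-1 was 2 with 10 kb or the strongest 1000 peaks. Depth is unknown, so whether replicate 2 could have shown the hif-1 peak cannot be stated from these lists.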
